A study of Thermothelomyces thermophilus ATCC 42464 with 8 samples.

Results

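DF1406 and DF1501 are strains of the thermophilic fungus Myceliophthora thermophila that carry different versions of a bacterial d-xylose pathway, and their transcripts are compared here directly. The comparison takes 2 libraries of each strain, 4 of the 8 RNA-seq libraries of the study, and every gene with an ID in the count table, 9110 in all. Both strains descend from JG207, which overexpresses the malate transporter gene Aomae and the pyruvate carboxylase gene Aopyc, and both lack Mtxyl1, the gene of d-xylose reductase. DF1406 overexpresses Mtxyd1, xylD, xylX and xylA. DF1501 overexpresses Mtxyd1, xylD, BxxylX and KsaD, so the last pair of enzymes comes from other bacteria. The remaining libraries are 2 of JG207 and 2 of DF1102, which lacks Mtxyl1 and carries no pathway genes. Mycelium was grown for 24 h on 2% glucose and moved to 1% d-xylose for 4 h at 45 °C and 150 rpm. The pathway plasmids entered the genome at random, under constitutive promoters, and each strain is a single engineered line, so an effect of the insertion site or copy number cannot be told apart from that of the enzymes.

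Fungi usually take up d-xylose by reducing it to xylitol and oxidizing that to d-xylulose, which enters the pentose phosphate pathway after phosphorylation. The Weimberg pathway instead oxidizes d-xylose to d-xylonate, removes water from it at successive steps, and oxidizes the resulting α-ketoglutarate semialdehyde to α-ketoglutarate, an intermediate of the tricarboxylic acid (TCA) cycle. Mtxyd1 encodes the d-xylose dehydrogenase of the first step, xylD the d-xylonate dehydratase, xylX or BxxylX the following dehydratase, and xylA or KsaD the semialdehyde dehydrogenase. The bacterial genes are not analysed here, so their transcripts could not be compared.

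Depth was similar, with 20727346 to 21408353 counts in each library. The DF1501 libraries lay further apart than those of the other strains. Their root mean square deviation from the strain mean was 0.202 in log2 CPM (counts scaled to library size), against 0.138 in DF1406 and 0.155 at most in the other strains. Between the DF1501 libraries 843 of 8335 tested genes differed by a fold of at least 1.5, and between the DF1406 libraries 386 did. On the first principal component, which held 69.2% of the variance, DF1501 replicate 1 stood at 4.8 and replicate 2 at -15.7, with JG207 at -50.1 and -50.9 and DF1406 at 16.6 and 17.1. Thus replicate 2 lay nearer JG207 than replicate 1 did. Whether both libraries of 1 strain stem from separate cultures is not given in the sources used here. The p-values therefore measure only how these libraries spread, and that spread may be technical.

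The gene removed in both strains was measured first. Mtxyl1 (MYCTH_43671) stood at 102 and 109 RPKM (reads scaled to gene length and library size) in DF1406 and at 252 and 228 RPKM in DF1501, against 412 and 383 RPKM in DF1102 and 1676 and 1773 RPKM in JG207. It was thus far below the starting strain in all 4 libraries, and reads were still assigned to it. These reads were more frequent in DF1501, by 1.12 on the log2 scale (standard error, SE, 0.14, edgeR adjusted p = 0.0075), and the libraries of the strains did not overlap. The test is edgeR's quasi-likelihood test, fitted to the 8 libraries together and adjusted by Benjamini-Hochberg over 8335 genes, and a gene is called where the adjusted p is at most 0.05 and the fold at least 1.5. Which part of the locus these reads cover could not be seen in a table of gene counts.

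Mtxyd1 (MYCTH_112471), which both strains carry as the native gene and as inserted copies, was lower in DF1501. It reached 4071 and 3639 RPKM in DF1406, 1947 and 1982 RPKM in DF1501, 1137 and 1194 RPKM in DF1102 and 244 and 216 RPKM in JG207. The log2 fold change between DF1501 and DF1406 was -1.04 (SE 0.20, edgeR adjusted p = 0.023), and both DF1501 libraries lay below both DF1406 libraries. Native and inserted copies share the coding sequence, and their reads cannot be told apart. Of the genes downstream on the native route, xdh1 (MYCTH_2293953), the xylitol dehydrogenase gene, stood at 826 and 918 RPKM in DF1406 and at 953 and 734 RPKM in DF1501, and the libraries overlapped. xkia (MYCTH_67060), which encodes d-xylulokinase, stood at 215 and 238 RPKM in DF1406 and at 185 and 135 RPKM in DF1501. It did not pass the test, with a log2 fold change of -0.56 (SE 0.18, edgeR adjusted p = 0.10). MYCTH_113236, annotated as another d-xylose reductase, stood at 160 and 171 RPKM in DF1406 and at 142 and 148 RPKM in DF1501, a log2 fold change of -0.25 (edgeR adjusted p = 0.18). Actin (MYCTH_2314852) gave -0.10 (edgeR adjusted p = 0.74), with 503 and 481 RPKM in DF1406 and 440 and 524 RPKM in DF1501.

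**Figure D1:**
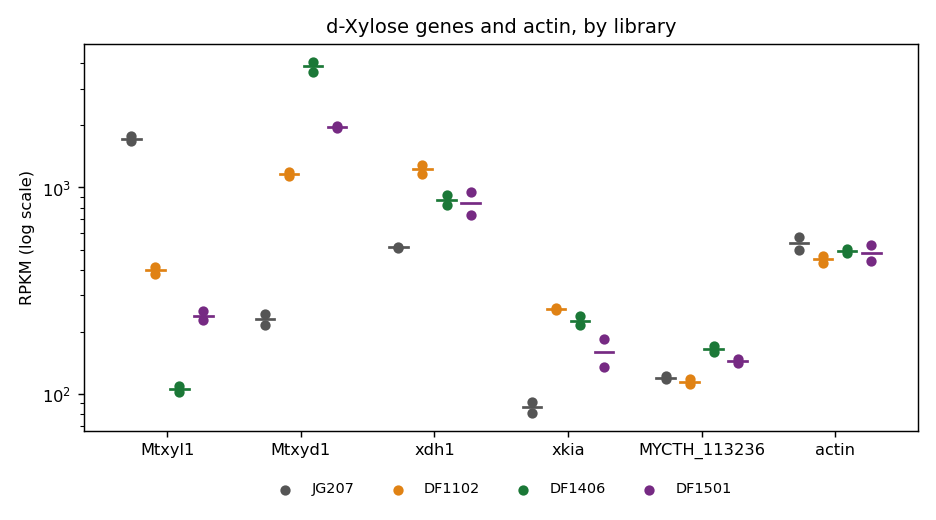
Transcript level in RPKM, on a log axis, of the native d-xylose genes and actin in each of 8 libraries. Points are libraries, colours are strains and short bars are means of 2 libraries. Mtxyd1 is highest in DF1406, DF1501 lies between DF1406 and DF1102, and Mtxyl1 is lowest in DF1406.

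Over all genes, 163 were higher and 153 lower in DF1501 than in DF1406, that is 1.96% and 1.84% of the 8335 tested and 3.79% together. Their log2 fold changes had a median of 0.89 for the higher genes and of -0.93 for the lower genes. In each of the 316 called genes the libraries of the strains were apart, meaning in CPM, which also applies below, that both DF1501 libraries lay on the same side of both DF1406 libraries. So were those of 4484 genes in all, 53.8% of those tested (27.7% with DF1501 higher and 26.1% with it lower). With library sizes alone in place of TMM factors, 286 genes were higher and 161 lower, so the balance between directions depends on the scaling. The calls lean on the spread shared by 4 strains. A fit of only these 4 libraries called 2 genes higher, MYCTH_2310363 and MYCTH_2113877, and 1 lower, MYCTH_2306730, named after its values were seen. It stood at 190 and 172 RPKM in DF1406 and at 68.8 and 69.5 RPKM in DF1501, and in the fit of 8 libraries its log2 fold change was -1.45 (SE 0.12, edgeR adjusted p = 0.0017). Without 1 or the other DF1406 library 5 or 4 genes were higher and 8 or 9 lower, and without 1 or the other DF1102 library 93 or 91 were higher and 70 lower.

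Each DF1501 library was then set against the mean of the DF1406 libraries. Both libraries lay above both DF1406 libraries, each by a fold of at least 1.5, in 273 genes (3.28% of those tested), and below them in 224 genes (2.69%), or 5.96% together. Of the genes called higher 136 agreed in this way, and of those called lower 120 did, while 27 and 33 called genes had 1 library nearer to DF1406. Replicate 2 departed from DF1406 in more genes than replicate 1, with 681 against 513 genes higher and 704 against 356 lower by that fold. Opposite departures of that size were found in 17 genes where replicate 1 was higher and replicate 2 lower, and in 12 genes the other way. In 131 of the 153 genes called lower, replicate 2 lay farther from DF1406 than replicate 1, and in 96 of the 163 called higher. Without DF1501 replicate 1, 362 genes were higher and 430 lower, and without replicate 2, 121 and 75.

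**Figure D2:**
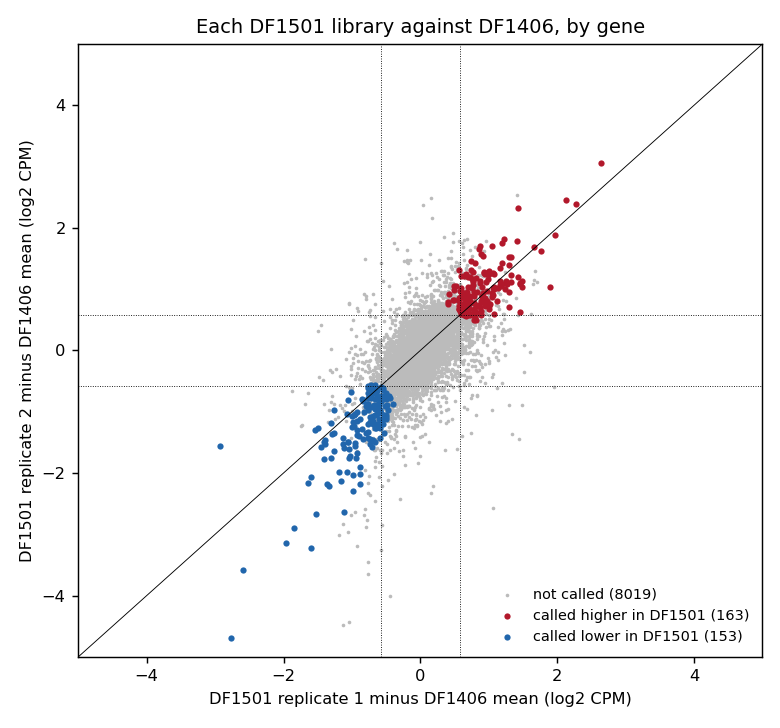
Difference in log2 CPM between DF1501 replicate 1 (x axis) or replicate 2 (y axis) and the mean of the DF1406 libraries, 1 point per tested gene. Red and blue points are the 163 genes called higher and the 153 called lower, dotted lines mark a fold of 1.5 and the solid line marks equal values. Most blue points lie under the solid line, where replicate 2 is farther from DF1406.

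Among called genes with a mean of at least 10 CPM in the higher strain, the 12 highest folds lay between 2.45 and 5.07. Few of these 12 genes have a description. MYCTH_2310363, which has no description, led with 10.5 and 9.77 RPKM in DF1406 and 49.9 and 58.0 RPKM in DF1501, a log2 fold change of 2.34 (SE 0.13, edgeR adjusted p = 0.00013). Its level in JG207 was 19.2 and 20.4 RPKM, so both DF1501 libraries stood above every other library. MYCTH_2113877, also without a description, rose from 5.94 and 5.43 RPKM in DF1406 to 22.6 and 22.9 RPKM in DF1501. JG207 and DF1102 held between 3.43 and 5.98 RPKM of it, close to DF1406. Its log2 fold change was 1.93 (SE 0.13, edgeR adjusted p = 0.00051), and both genes stayed called when either DF1406 library was left out.

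Of those 12 genes, 3 have a description from the closest Saccharomyces cerevisiae gene. MYCTH_2313014, described as an enzyme that passes coenzyme A between succinyl-CoA and acetate, stood at 7.29 and 10.6 RPKM in DF1406 and at 28.2 and 30.6 RPKM in DF1501. Its log2 fold change was 1.65 (SE 0.18, edgeR adjusted p = 0.0063). MYCTH_2312115, described as a mitochondrial carnitine acetyltransferase, which moves acetyl groups as carnitine esters, had the widest gap between DF1501 libraries of the 3. It measured 42.5 and 46.7 RPKM in DF1406 against 167 and 99.3 RPKM in DF1501, a log2 fold change of 1.53 (SE 0.23, edgeR adjusted p = 0.013). MYCTH_2299507, described as phospholipase D, which releases choline from phosphatidylcholine, rose from 1.29 and 1.38 RPKM to 3.37 and 3.86 RPKM. A further carnitine acetyltransferase gene, MYCTH_2298711, named after its values were seen, was also higher, at 62.6 and 59.1 RPKM in DF1406 and 108 and 93.2 RPKM in DF1501.

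The other 7 of the 12, with log2 fold changes between 1.29 and 1.51, are known only by their IDs. MYCTH_17585, for example, stood at 19.5 and 20.4 RPKM in DF1406 and at 51.6 and 51.2 RPKM in DF1501. By contrast MYCTH_2297080 was uneven, at 31.9 and 53.5 RPKM in DF1501 against 19.3 and 11.8 RPKM in DF1406. The largest fitted values of all belonged to hardly expressed genes. MYCTH_2122609, named after its values were seen, had 1 and 0 counts in DF1406 and 13 and 19 counts in DF1501, and no fold is given for it.

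The 12 lowest folds reached further. MYCTH_2307942, which has no description, was among the most abundant transcripts that fell, from 3071 and 2788 RPKM in DF1406 to 434 and 122 RPKM in DF1501. The log2 fold change was -3.44 (SE 0.49, edgeR adjusted p = 0.011), a 10.8-fold difference, although the DF1501 libraries were themselves far apart. In DF1102 the gene stood at 2499 and 2131 RPKM and in JG207 at 64.4 and 81.5 RPKM, so DF1501 lay between JG207 and DF1406. Its neighbours MYCTH_2307937 and MYCTH_2307943, next to it in the RefSeq gene order (assembly ASM22609v1), fell too. MYCTH_2307937 measured 125 and 120 RPKM in DF1406 and 20.5 and 10.9 RPKM in DF1501, a log2 fold change of -3.01 (SE 0.26, edgeR adjusted p = 0.0018). MYCTH_2307943 stayed under 2 RPKM in every library and gave -1.68 (SE 0.27, edgeR adjusted p = 0.016).

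Those 3 genes on chromosome 5 were 1 of 2 runs of at least 3 neighbours called in the same direction. The other lies on chromosome 6, where MYCTH_2310455, MYCTH_2310457 and MYCTH_2310459 were all higher in DF1501, with log2 fold changes of 0.85, 0.88 and 1.18. MYCTH_2310459 stood at 17.3 and 17.1 RPKM in DF1406 and at 41.9 and 39.7 RPKM in DF1501. It held 13.6 and 13.5 RPKM in DF1102 and 5.38 and 6.87 RPKM in JG207, so DF1501 was above all other libraries. No function is given for any gene of either run.

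Further genes of the lowest 12 included very abundant transcripts. MYCTH_81258 stood at 11076 and 12680 RPKM in DF1406 and at 5364 and 2939 RPKM in DF1501, a log2 fold change of -1.57 (SE 0.35, edgeR adjusted p = 0.041). MYCTH_88807 stood at 2664 and 2281 RPKM and at 869 and 418 RPKM in turn. For both, replicate 2 was the lower DF1501 library and the call was lost without it. MYCTH_2309658, described by the yeast gene of α-aminoadipate reductase, fell from 15.2 and 13.8 RPKM to 5.67 and 3.45 RPKM. Its log2 fold change was -1.73 (SE 0.23, edgeR adjusted p = 0.0082). That yeast enzyme acts in lysine synthesis, but the study lists another gene, MYCTH_2295392, as lys2 for that step. Of the study's 41 amino acid biosynthesis genes edgeR called 0 lower, whereas DESeq2 called 2 lower and 0 higher. With edgeR 6 were lower and 2 higher at an unadjusted p of at most 0.05, which 23.5% of all tested genes reached. The lysine gene lys9 (MYCTH_2300877) had a log2 fold change of -0.61 (SE 0.15, edgeR adjusted p = 0.052).

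**Figure D3:**
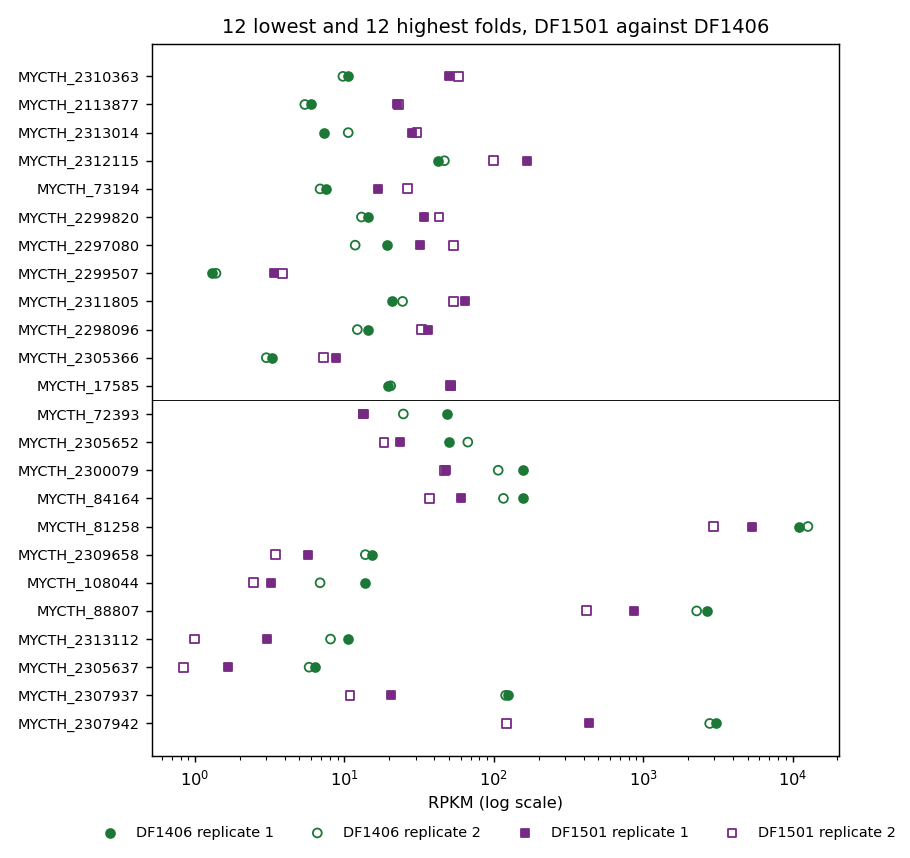
RPKM, on a log axis, of the 12 genes with the lowest and the 12 with the highest called folds among genes with at least 10 CPM in the higher strain, ordered by log2 fold change. Circles are DF1406 and squares DF1501 libraries, filled for replicate 1 and open for replicate 2. The open squares lie left of the filled ones in most genes below the line.

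The most abundant transcripts that rose were steadier between the DF1501 libraries. MYCTH_2302804, which has no description, stood at 154 and 148 RPKM in DF1406 and at 315 and 313 RPKM in DF1501, a log2 fold change of 0.99 (SE 0.10, edgeR adjusted p = 0.0048). JG207 held 429 and 465 RPKM and DF1102 58.2 and 59.8 RPKM, so DF1501 lay between DF1406 and JG207. MYCTH_2305504, also without a description, stood at 158 and 162 RPKM in DF1406 and at 363 and 363 RPKM in DF1501. MYCTH_2302731, described as a regulator of the mitochondrial ATP synthase, rose from 514 and 435 RPKM to 764 and 755 RPKM, a log2 fold change of 0.61 (SE 0.14, edgeR adjusted p = 0.045). MYCTH_2303566, the gene of ornithine aminotransferase, which breaks down ornithine from arginine, rose from 152 and 159 RPKM to 236 and 254 RPKM. Its log2 fold change of 0.59 (SE 0.13, edgeR adjusted p = 0.039) lay next to the fold limit of 1.5. With edgeR it was the 1 called gene of 41 in amino acid biosynthesis, whereas DESeq2 called 0 of them higher and 2 lower. MYCTH_2299470, described as a cytoplasmic serine/threonine kinase, stood at 134 and 130 RPKM in DF1406 and at 230 and 245 RPKM in DF1501.

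M. thermophila secretes many glycoside hydrolases (GH), which cut the polysaccharides of plant cell walls, and enzymes of the auxiliary activity (AA) families, which oxidize them. The GH list is that of the study and also holds trehalase, chitinase and amylase families. Of these 45 genes, 11 were called lower in DF1501 and 0 higher, with a median log2 fold change of -0.65 against 0.01 over all genes. DESeq2 called 19 of the 45 lower and 0 higher, and the fit of only the 4 libraries compared called 0 in either direction. The libraries were apart in 34 of the 45 on the lower side and in 1 on the higher side. The median was below 0 in both DF1501 libraries, at -0.45 in replicate 1 and -1.18 in replicate 2. By the rule for agreement given above, 16 of the 45 were lower in both, against 2.69% of all tested genes. In 8 the DF1501 libraries lay on opposite sides of the DF1406 mean, with replicate 1 above it. The median log2 fold change was -0.48 without replicate 2 and -1.21 without replicate 1. The study had chosen these GH genes, and the AA, regulator and transporter genes below, as higher in DF1102 than in JG207 on libraries of this series, so their direction is not independent evidence.

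The GH genes that fell encode enzymes of several kinds. MYCTH_2300079, of the α-glucosidase family GH31, fell from 157 and 107 RPKM in DF1406 to 48.0 and 46.9 RPKM in DF1501, a log2 fold change of -1.54 (SE 0.19, edgeR adjusted p = 0.0073). MYCTH_72393, a glucoamylase of family GH15 with a starch-binding module, stood at 48.5 and 24.8 RPKM and at 13.3 and 13.5 RPKM. MYCTH_109444, of the endoglucanase family GH12, stood at 1110 and 946 RPKM in DF1406 and at 526 and 225 RPKM in DF1501, and MYCTH_2308390 of family GH114 at 3266 and 2554 RPKM and at 1340 and 1161 RPKM. All 4 were picked among called genes with libraries apart, so lower values in both DF1501 libraries follow from that choice.

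The most abundant xylanase did not pass the test. MYCTH_89603, of family GH11, which cuts xylan, stood at 11266 and 10760 RPKM in DF1406 and at 6520 and 1093 RPKM in DF1501. Both DF1501 values were lower, but they differed so much from each other that the log2 fold change of -1.56 had an SE of 0.64 (edgeR adjusted p = 0.18). A further xylanase gene of that family, MYCTH_100068, stood at 991 and 647 RPKM in DF1406, at 595 RPKM in DF1501 replicate 1 and at 54.0 RPKM in replicate 2. It was 1 of the 6 genes that differed most between the DF1501 libraries.

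Of 8 AA genes 1 was called lower and 0 higher, with a median log2 fold change of -0.67, and 6 had libraries apart on the lower side. The median was -0.39 in replicate 1 and -1.0 in replicate 2, and 5 AA genes were called lower without replicate 1 and 0 without replicate 2. The called gene was MYCTH_81925, named after its values were seen, with the AA8 and AA3 modules found in cellobiose dehydrogenase. It stood at 30.0 and 22.7 RPKM in DF1406 and at 17.0 and 17.8 RPKM in DF1501. MYCTH_110651, a lytic polysaccharide monooxygenase of family AA9, stood at 11.9 and 7.47 RPKM and at 5.53 and 1.44 RPKM, with a log2 fold change of -1.52 (SE 0.47, edgeR adjusted p = 0.098).

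The regulators of these enzymes gave small differences. With edgeR 0 of 4 passed the test, 0 had an unadjusted p of at most 0.05 and DESeq2 called 0. The log2 fold changes lay between -0.23 for Mtclr-1 (MYCTH_2298863) and 0.19 for Mtclr-2 (MYCTH_38704), both activators of cellulase genes. Mtclr-1 stood at 66.1 and 50.6 RPKM in DF1406 and at 49.3 and 54.6 RPKM in DF1501. Mtxyr-1 (MYCTH_2310145), the activator of xylanase and d-xylose genes, stood at 19.8 and 20.6 RPKM and at 22.2 and 21.7 RPKM, a log2 fold change of 0.05 (edgeR adjusted p = 0.83). In CPM, Mtclr-1 was the 1 regulator of 4 with libraries apart, at 158 and 125 CPM in DF1406 and 118 and 122 CPM in DF1501.

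Sugar transporters leaned the same way as the GH genes. Of 19 transporter genes of the study 3 were called lower and 0 higher, with a median log2 fold change of -0.36. Negative values were found in 17 of the 19, against 3993 of all 8335 tested genes. MYCTH_108044, described by a yeast glucose sensor, stood at 13.8 and 6.87 RPKM in DF1406 and at 3.21 and 2.46 RPKM in DF1501, a log2 fold change of -1.92 (SE 0.33, edgeR adjusted p = 0.018). MYCTH_84164, described as similar to hexose transporters, stood at 158 and 116 RPKM and at 60.1 and 37.1 RPKM, a log2 fold change of -1.55 (SE 0.24, edgeR adjusted p = 0.014). The third, MYCTH_103797, described as a maltose permease, stayed under 3 RPKM in these 4 libraries.

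Other carriers differed too, in both directions. Of 21 genes described as drug or multidrug transporters 6 were called lower and 0 higher, with a median log2 fold change of -0.48. Against DF1406 the median was -0.21 in replicate 1 and -0.59 in replicate 2, and without replicate 1 10 were lower and 1 higher. MYCTH_2306507, a member of the DHA1 family of such antiporters, stood at 88.0 and 89.5 RPKM in DF1406 and at 47.2 and 36.9 RPKM in DF1501, a log2 fold change of -1.14 (SE 0.16, edgeR adjusted p = 0.011). Of 13 amino acid transporters 3 were called higher and 0 lower, although the list's median log2 fold change was -0.05. Those were MYCTH_2312467, described as an arginine permease, with 16.1 and 21.6 RPKM in DF1406 and 38.0 and 33.5 RPKM in DF1501, MYCTH_2309554, described as a methionine permease, and MYCTH_2055845, described as a general permease and named after its values were seen. Of 18 iron and siderophore genes 1 was called, the siderophore transporter MYCTH_2307144. It stood at 3.86 and 3.52 RPKM in DF1406 and at 5.93 and 9.56 RPKM in DF1501, with a log2 fold change of 0.99 (SE 0.19, edgeR adjusted p = 0.027).

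In central carbon metabolism few genes passed the test. Of 19 glycolysis genes 1 was called higher and 0 lower, with a median log2 fold change of 0.08. DESeq2 and library size alone each called 3 higher and 0 lower. With edgeR 6 were higher and 0 lower at an unadjusted p of at most 0.05. The 1 called gene of the main analysis was the phosphoglycerate kinase gene pgk (MYCTH_2316240), whose enzyme makes ATP in glycolysis. It stood at 667 and 656 RPKM in DF1406 and at 1228 and 1531 RPKM in DF1501. The log2 fold change was 0.99 (SE 0.22, edgeR adjusted p = 0.040), and this call was lost without DF1501 replicate 2. The glyceraldehyde 3-phosphate dehydrogenase gene gapdh (MYCTH_2311855), at the step before, stood at 2082 and 2398 RPKM and at 3460 and 3839 RPKM, apart but with an edgeR adjusted p of 0.12. Of 7 pentose phosphate pathway genes and 20 TCA cycle genes edgeR and DESeq2 called 0, while 3 and 2 had an unadjusted p of at most 0.05 with edgeR. Their log2 fold changes lay between -0.39 and 0.31 and between -0.34 and 0.37. The gene of the 2-oxoglutarate dehydrogenase E1 component (MYCTH_2312383), which uses the product of the Weimberg pathway, stood at 169 and 199 RPKM in DF1406 and at 260 and 216 RPKM in DF1501 (edgeR adjusted p = 0.30).

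Genes of storage carbohydrate and glycerol had a median log2 fold change of 0.31, with 0.47 in replicate 1 and 0.10 in replicate 2. Of these 15 genes 1 was called higher, whereas DESeq2 called 3 higher and 1 lower and library size alone gave 5 and 1. The called gene was gys (MYCTH_2301334), of glycogen synthase. It rose from 26.7 and 29.6 RPKM to 48.8 and 47.6 RPKM, a log2 fold change of 0.71 (SE 0.12, edgeR adjusted p = 0.016). The isocitrate lyase gene icl (MYCTH_110871), of the glyoxylate cycle, stood at 32.7 and 44.7 RPKM in DF1406 and at 89.5 and 52.9 RPKM in DF1501 (edgeR adjusted p = 0.098). The gluconeogenic gene pck (MYCTH_2315623) stood at 308 and 370 RPKM in DF1406, at 549 RPKM in DF1501 replicate 1 and at 271 RPKM in replicate 2, so the DF1501 libraries lay on either side of DF1406. The 7 genes of the glyoxylate and pyruvate branches had a median of 0.46, with 0.56 in replicate 1 and 0.35 in replicate 2. The 1 called gene was lower, the malic enzyme gene MYCTH_2302433, named after its values were seen, at 27.8 and 24.1 RPKM in DF1406 and 19.1 and 16.7 RPKM in DF1501. That count turned with the setting, since DESeq2 called 3 higher and 1 lower, library size alone gave 2 higher and 0 lower, and without DF1501 replicate 2 there were 1 and 0.

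Redox and fatty acid enzymes were mixed. Of 24 genes described as aldehyde or alcohol dehydrogenases 2 were called lower and 0 higher, with a median log2 fold change of -0.31. Without DF1501 replicate 1 these counts were 8 and 0, without replicate 2 they were 3 and 2, and DESeq2 gave 6 and 1. MYCTH_2302859, described as an aryl alcohol dehydrogenase, stood at 1502 and 1428 RPKM in DF1406 and at 741 and 665 RPKM in DF1501, a log2 fold change of -1.12 (SE 0.17, edgeR adjusted p = 0.013). MYCTH_112014, named ADH6 by the study, stood at 152 and 134 RPKM and at 87.9 and 98.9 RPKM, a log2 fold change of -0.68 (SE 0.11, edgeR adjusted p = 0.014). The native aldehyde dehydrogenase gene aldh (MYCTH_2140820) stood at 717 and 713 RPKM in DF1406 and at 1800 and 986 RPKM in DF1501, both above DF1406 but far apart (edgeR adjusted p = 0.10). Of 62 peroxisome and β-oxidation genes 4 were called lower and 1 higher, but 10 and 1 without DF1501 replicate 1 and 2 and 3 without replicate 2. MYCTH_2299448, described as a multifunctional β-oxidation enzyme, stood at 67.9 and 77.1 RPKM and at 39.4 and 19.2 RPKM, a log2 fold change of -1.36 (SE 0.30, edgeR adjusted p = 0.039). Single genes were called in other lists. MYCTH_108317, described as a mitochondrial β-ketoacyl synthase, stood at 1.57 and 1.64 RPKM in DF1406 and at 0.777 and 0.507 RPKM in DF1501. MYCTH_2306275, described as urea amidolyase, which degrades urea to ammonia, stood at 17.3 and 19.2 RPKM and at 13.0 and 9.27 RPKM. Of 42 sterol synthesis genes and 42 genes of oxidative stress defence 1 each was called lower, with list medians of 0.05 and -0.06.

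In the genes of cytosolic ribosomal proteins the DF1501 libraries disagreed. edgeR and DESeq2 called 0 of 74 cytosolic ribosomal protein genes, at a median log2 fold change of 0.08, and with edgeR 0 had an unadjusted p of at most 0.05. Without replicate 1, edgeR called 6 of them higher, and without replicate 2 it called 0. In 67 of the 74, replicate 1 lay below the DF1406 mean and replicate 2 above it, with medians of -0.16 and 0.32. Over all tested genes that pattern was seen in 1255 of 8335. MYCTH_2297948, described as a protein of the small subunit, stood at 584 and 495 RPKM in DF1406, at 494 RPKM in DF1501 replicate 1 and at 1011 RPKM in replicate 2. By contrast 124 ribosome biogenesis genes had the same median of -0.16 in both libraries, with 0 called by edgeR. Of the 124, 107 had negative log2 fold changes, against 3993 of all 8335 tested genes. DESeq2 called 1 ribosome biogenesis gene lower, and 23 were lower at an unadjusted p of at most 0.05 with edgeR. Mitochondrial ribosomal proteins, aminoacyl-tRNA synthetases, the respiratory chain, the proteasome, chaperones and DNA replication genes likewise had 0 called, with medians between -0.08 and 0.10. At an unadjusted p of at most 0.05 with edgeR, 9 mitochondrial ribosomal protein genes and 10 chaperone genes were lower and 5 DNA replication genes higher, and DESeq2 called 1 chaperone gene higher. Over all genes 1959 reached that unadjusted p (23.5%).

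The genes that differed most between the DF1501 libraries, among those with at least 10 CPM in either, were higher in replicate 1 in all 6 cases. MYCTH_80233 stood at 59.5 RPKM in replicate 1 and at 5.04 RPKM in replicate 2, with 30.9 and 25.5 RPKM in DF1406. MYCTH_2094591, described as a quinone oxidoreductase, stood at 34.8 and 3.46 RPKM in DF1501, with 65.2 and 77.0 RPKM in DF1406 and 1.18 and 1.44 RPKM in JG207. Each of the 6 was low in JG207, at under 2 RPKM.

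**Figure D4:**
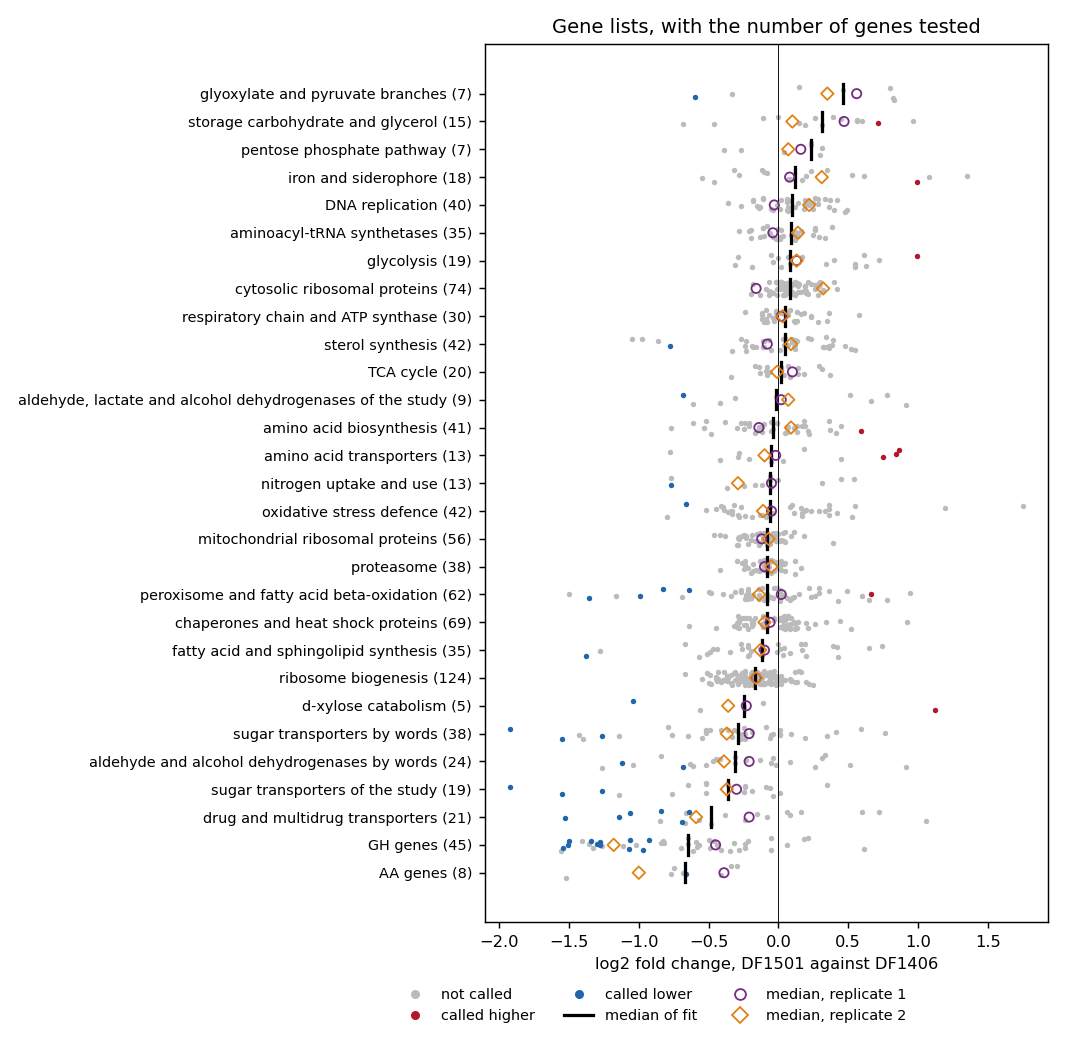
Log2 fold change between DF1501 and DF1406 of each tested gene (points) in gene lists with at least 5 tested genes. Black bars are list medians, and circles and diamonds are the medians of DF1501 replicate 1 and replicate 2 against the DF1406 mean in log2 CPM. GH and AA genes lie lowest, and in the cytosolic ribosomal proteins the circle and the diamond lie on opposite sides of 0.

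The called genes were finally set against a comparison that shares no library with this one, DF1102 against JG207. In it 18.9% of tested genes were higher and 21.7% lower, 40.5% together, by the same thresholds. Both comparisons come from the same fit, with a shared spread for each gene. A gene of small spread is more easily called in both, so the called genes may start from a higher share than all genes. Of the 153 genes lower in DF1501 than in DF1406, 129 (84.3%) were called higher in DF1102 and 4 lower. Of the 163 higher genes, 91 (55.8%) were lower in DF1102 and 8 were higher. In mean RPKM, DF1501 was nearer JG207 than DF1406 was in 148 of the 153 lower genes and in 109 of the 163 higher genes. DF1501 was nearer DF1102 than DF1406 was in 39 of these lower genes and in 33 of these higher genes. No share over all tested genes was computed. DF1501 also lay nearer JG207 on the first principal component, so nothing is read from these counts. All 45 GH genes were called higher in that comparison, for which the study had chosen them, and DF1501 replicate 2 had the lower median of the list. Among genes past a fold of 1.5 in replicate 2 alone, 344 of 408 higher genes had lower fitted levels in DF1102 than in JG207. In replicate 1 alone this was so for 136 of 240, and their median log2 fold change between DF1102 and JG207 was -0.14 against -0.92. Among the lower genes it was so for 67 of 479 in replicate 2 alone and for 66 of 131 in replicate 1 alone. Their medians were 0.94 and -0.03. Over all tested genes the median was -0.01, and the share with lower fitted levels was not computed.

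The strains were also set against all other libraries in CPM. In 55 of the 163 higher genes (33.7%) both DF1501 libraries stood above all 6 other libraries, against 4.10% of tested genes, and MYCTH_2310363, MYCTH_2113877 and MYCTH_2313014 were among them. Of these 3, MYCTH_2310363 and MYCTH_2313014 were also called lower in DF1102 than in JG207. In 13 of the 153 lower genes (8.50%) both DF1501 libraries stood below all others, against 3.16%. DF1406 stood above all other libraries in 71 of the lower genes (46.4%, against 5.33% of tested genes) and below them in 50 of the higher genes (30.7%, against 6.03%). Mtxyd1 and the GH31 gene MYCTH_2300079 were highest in DF1406, and Mtxyl1 was lowest there. Having libraries apart is part of being outside all others, so the called genes start from a higher share than all genes, and nothing is read from the difference.

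**Figure D5:**
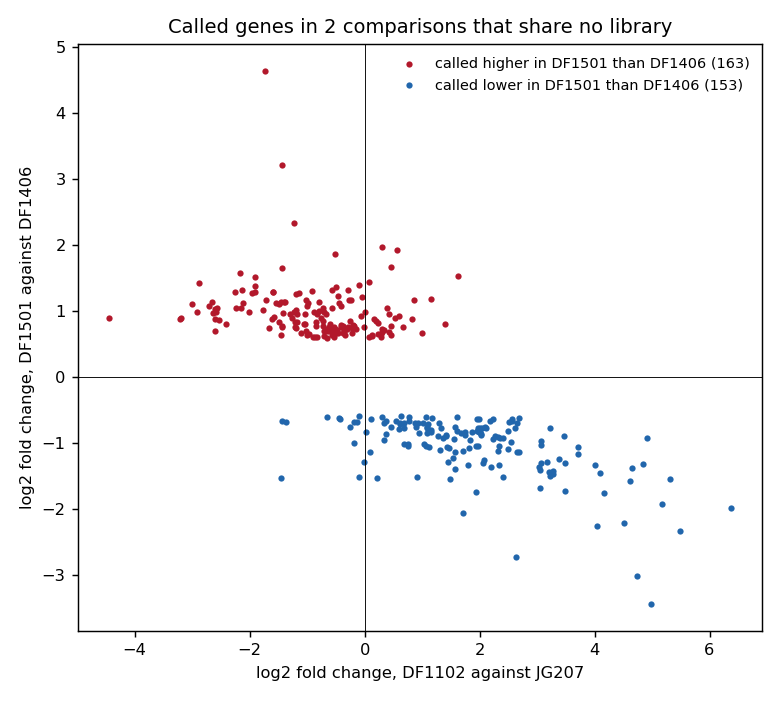
Log2 fold change between DF1501 and DF1406 (y axis) against that between DF1102 and JG207 (x axis) for the 316 called genes. The comparisons share no library but are fitted together. Most genes lower in DF1501 lie to the right of 0 (129 called higher in DF1102), and the higher genes lie on both sides, more often on the left (91 called lower in DF1102).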

How the data were processed

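RNA was sequenced in 8 libraries, 2 from each of 4 strains. Per the methods, the authors used SOAPnuke to filter reads, TopHat2 2.0.12 to map them and HTSeq 0.13.5 to count those unique to a gene, and the deposited counts were used unchanged. The deposited RPKM values equal the authors' counts divided by a gene length and the library's sum, and were used for levels. The strand setting is not given in the sources used here, so overlapping and antisense genes may share reads, and near-identical copies may lose them. In 1 count column, 3 rows without a gene ID, which the authors deposited beside the counts as other values (totals), were left out.

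Counts were tested with edgeR 4.0.16 (R 4.3.3), with TMM factors between 0.954 and 1.05 and the default filter at a minimum count of 10, which kept 8335 of 9110 genes. Each standard error is the size of the log2 fold change over the root of its F. CPM used these factors. In data simulated for DF1501 against DF1406 over 8335 genes, planted genes were recovered by adjusted p and direction. This held for 41.0% of 78 genes planted at a fold of 1.5, 73.4% of 64 at 2 and 100% of 58 at 4. Of 8135 unchanged genes, 17 were called. The simulation gave all strains the same spread for each gene, whereas the DF1501 libraries lay further apart in the data. These rates may therefore not hold for this comparison.

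The members and lists were chosen with earlier results of these data known. Of 31 lists, some came from the study and the rest from words in gene descriptions, which were revised with the descriptions in view but without fold changes. Descriptions are those of the closest S. cerevisiae gene, cover 4214 genes, and another 23 descriptions were not used here. Lists are described by counts and medians, without a set test. Gene order came from RefSeq (ASM22609v1), in which 9087 genes were found, and no coordinates or sequences are printed.

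Genes named in the text are those the study names by ID, the 12 highest and 12 lowest called folds with at least 10 CPM in the higher strain and libraries apart, the 8 most abundant called genes in each direction, the 3 largest changes of each list, the 6 largest differences between the DF1501 libraries and runs of at least 3 neighbours. Not all that the rule allows are printed, and any outside the rule are marked in the text as chosen with values known. Results were recomputed with DESeq2 1.42.0, RLE factors, library size alone, no count filter or a stricter one, only the 4 libraries, a replicate block, limma 3.58.1 (voom with sample weights, and log2(RPKM + 1) or log2(RPKM + 0.1)), other fold minimums and leaving out each library. Deviations of same-numbered libraries from their strain means correlated at -0.223 between DF1406 and DF1501. Between the other pairs of strains the correlations lay between -0.054 and 0.169.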

Additional observations from a re-analysis of the deposited data

How the results depend on the processing

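The counts of genes higher and lower in DF1501 than in DF1406, 163 and 153, moved under several settings. DESeq2 called 263 and 246, which included 157 and 152 of those genes. Only the 4 libraries gave 2 and 1, or, with adjusted p of at most 0.10, a limit chosen after seeing the data, 175 and 104. Library size alone gave 286 higher genes. limma on log2(RPKM + 1) with no filter gave 40 and 16, and on log2(RPKM + 0.1) 88 lower. On RPKM values the share of higher calls was 61.2%, 71.4% and 63.3%, against 51.6% in the main analysis. A fold of at least 2 left 59 and 68. Leaving out each library in turn gave between 4 and 362 higher genes and between 8 and 430 lower genes. The libraries that moved a count by over 1.5 times were DF1406 replicate 1 (5 and 8) and replicate 2 (4 and 9), DF1501 replicate 1 (362 and 430) and replicate 2 (75 lower), and DF1102 replicate 1 (93 and 70) and replicate 2 (91 and 70). Where a strain was left with 1 library, that library was assumed to vary like the other strains. The cause of these shifts was not tested. RLE factors, the other count filters, voom with sample weights and leaving out a JG207 library kept both counts within 1.5 times.

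In DF1102 against JG207 the counts of 1572 and 1806 were moved by over 1.5 times only by a fold of at least 2, to 849 and 923. Of the genes higher in DF1501 and lower in DF1102, 91 in the main analysis, DESeq2 gave 163, library size alone 158, log2(RPKM + 1) with no filter 19, no fold minimum 137 and a fold of at least 2 gave 32, and leaving out a library gave 3 to 240. Of those lower in DF1501 and higher in DF1102, 129 in the main analysis, log2(RPKM + 1) with no filter gave 16, log2(RPKM + 0.1) gave 81 and a fold of at least 2 gave 58, and leaving out a library gave 7 to 343. Among 131 named genes, 3 that were not called reversed without DF1501 replicate 1, and leaving out a library gave -2.60 to 1.06 for MYCTH_80233, -1.48 to 1.45 for MYCTH_49700 and -1.42 to 1.33 for MYCTH_2295409. Of the 53 named genes called, 16 lost the call without DF1501 replicate 2, 1 without replicate 1, and 46 without either DF1406 library.

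The replicate block gave 143 and 138, of which 140 and 124 were among the genes of the main analysis, and 6 of the 53 named genes lost their call under it. Deviations of same-numbered DF1406 and DF1501 libraries correlated at -0.223 over 8335 genes, so the numbers are not taken to pair the libraries. With the DF1501 numbers crossed in the replicate block, an alternative chosen after seeing the data, 204 and 161 genes were called. Depth was alike in all libraries, and genes with few counts, such as those under 2 RPKM, have the least precise folds.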
